A study of Rattus norvegicus with 6 samples.

Results

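The replication-dependent histone genes encode the bulk of the histones that a cell makes while it copies its DNA. Here they were taken as every protein-coding row of the deposited liver table whose gene symbol is H1f1 to H1f5, H2ac, H2bc, H3c or H4c followed by a number. This gave 60 of the 32930 genes listed, 55 for core histones (15 H2A, 16 H2B, 12 H3 and 12 H4) and 5 for linker histones (H1). All libraries came from livers of animals on a high-fat diet. By the labels, the HFD group (3 libraries) also received the vehicle, 0.5% carboxymethyl cellulose sodium (CMC-Na). The HTG group (3 libraries) received Huazhuo Tiaozhi granule, a herbal preparation named HTG, and its labels have no vehicle entry. In the rat experiment that the study describes, the drugs too were given in 0.5% CMC-Na. The labels give 12 weeks of intervention, and their treatment entry for the HTG group reads HCG where the titles read HTG. They name rats and a rat genome, whereas the RNA-seq methods of the study name C57BL/6 J mice and the table carries mouse Ensembl identifiers, so the rows were read as mouse genes. The study also measured lactylation of histones H2B and H4 in cultured liver cells, and the question asked here is whether the mRNAs of these histones differed between HTG and HFD livers. The design text divides 6 animals between the groups, so each library was taken as 1 animal. It names no batch.

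Core histones H2A, H2B, H3 and H4 form the nucleosome, the spool around which DNA is wound, and linker histone H1 binds where DNA enters and leaves it. The genes lie in clusters, mostly lack introns and are transcribed chiefly in S phase. Most of their mRNAs end in a stem-loop that the protein SLBP binds, not in a poly(A) tail, and are degraded when replication stops. In non-dividing cells some of the genes also give polyadenylated transcripts, among which those of H2bc4, H2bc21 and H1f2 are known. Most adult hepatocytes do not divide. The libraries were made from RNA caught on oligo(dT) beads, so a level given below is the level of the polyadenylated form and of whatever other RNA was carried along, not of all histone mRNA.

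The members were on the whole close to the limit of detection. Levels that compare genes with each other are given as FPKM, which allows for transcript length, and only 8 of the 60 had a mean of at least 1 FPKM over the 6 libraries. These were 7 core genes and H1f2, and 48 of the 55 core genes stayed under 1 FPKM. H2bc4 led with 126 FPKM, followed by H1f2 with 36.0, H2bc8 with 25.2 and H2ac18 with 22.2, and no other member reached 10 FPKM. Next came H4c9 with 2.07, H4c8 with 2.07, H2bc21 with 1.06 and H3c15 with a mean of 1 FPKM. Among the low counts of the table, 4 was the most frequent value (6450 occurrences over the 6 libraries) and 8 (3333) was more frequent than 7 (1521) or 9 (1170), while 1 (5104) and 2 (4229) were common too. On this ground 1 fragment was taken as about 4 counts, which the deposited files do not state. The floor of detection was set at 3 such fragments, or 12 counts, between 0.123 and 0.256 CPM (counts scaled to a common library total). Floors cover counting error only. Values of 3 libraries always follow the order of library 1, 2 and 3. In every library 22 members were at or under this floor, and H2ac21 was at 0 throughout. The expression filter passed 30 members, 27 core (4 H2A, 9 H2B, 4 H3 and 10 H4) and 3 linker, and the 30 others had at most 32 counts, reached by H3c1 in HTG library 1.

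**Figure D1:**
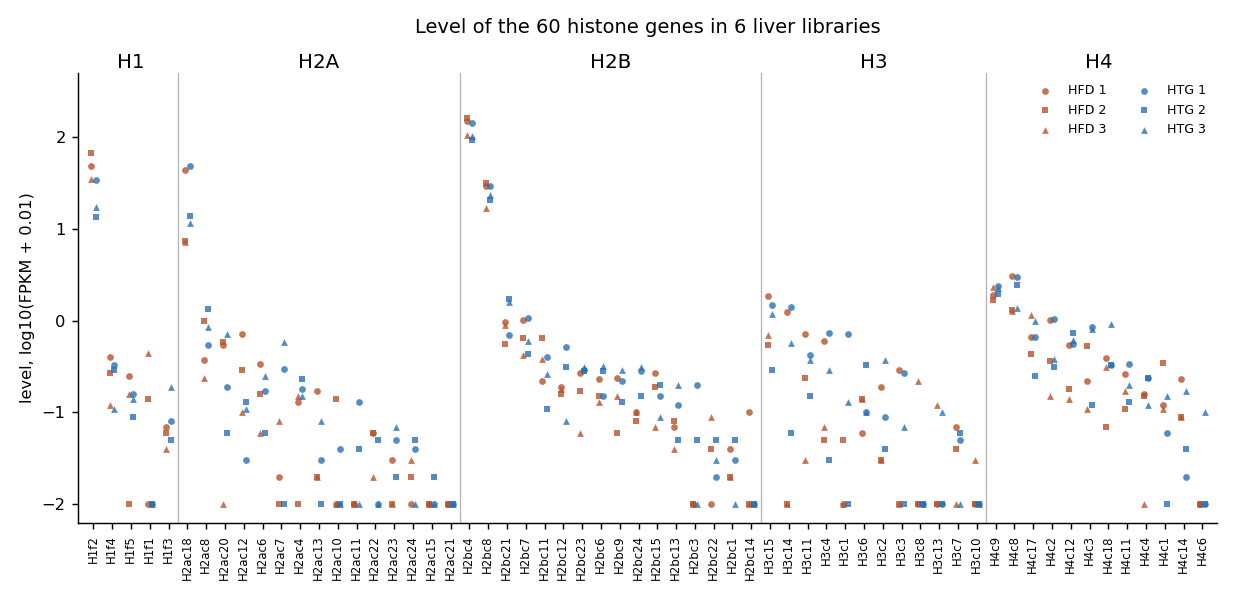
Level of each of the 60 genes in each library, as log10 of FPKM plus an offset of 0.01, ordered within a family by the mean level, with HFD libraries in brown, HTG libraries in blue and marker shapes for library numbers. Points on the bottom edge are zeros. H2bc4, H2bc8, H1f2 and H2ac18 stand above all other members, whose points lie mostly below 1 FPKM (0 on the axis) and spread widely within a group.

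By position, 52 members lay on chromosome 13 and 8 on chromosome 3 (coordinates as the table lists them, with no mouse genome build named). The 29 members between 23715220 and 24118139 of chromosome 13 held 90.9% of all member counts, mostly through H2bc4 and H1f2. The 23 members between 21899933 and 22227846 of the same chromosome held 1.58%, and the 8 between 96127181 and 96176457 of chromosome 3 held 7.51%. The coding part of such a gene is short, and 43 members spanned at most 1000 bases. The 17 members with a longer span, H2bc4 and H1f2 among them, carried between 80.6% and 91.0% of member counts in the 6 libraries. H2bc4 is listed over 8710 bases and H1f2 over 1560, while H2bc8 (618 bases) and H2ac18 (586) were abundant despite a short span.

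Between the groups, the core genes showed little that passed a test, and H1f2 stood lower in the HTG group at an unadjusted p under 0.05. In edgeR's quasi-likelihood test over 18455 genes, that threshold was passed by 24.7% of all genes, 12.3% in the direction of a higher and 12.4% of a lower HTG level. Among the 27 core genes tested, 1 was higher (3.70%), H2bc24, and 0 were lower, so the core share lay below the background share. Of the 3 linker genes tested, 0 were higher and 1 was lower, H1f2. No member had an adjusted p under 0.05 or under 0.1 in that edgeR test after adjustment by the Benjamini-Hochberg method. Of all genes, 0.0108% (0.00542% in each direction) and 10.8% (5.41% higher and 5.43% lower) did. Under the alternatives tried, H1f2 alone went under 0.05, with an adjusted p of 0.019 in DESeq2, which gave none for H2bc24. In DESeq2 that threshold was passed by 17.0% of the 14491 genes given an adjusted p, 9.37% in the direction of a lower HTG level. In CPM, the groups did not overlap in 3 of the 27 core genes tested (11.1%), all higher in the HTG group (H2bc24, H2bc23 and H4c12). They overlapped in every linker gene tested. Of all genes tested, 32.1% had groups that did not overlap (16.5% higher and 15.5% lower). The untested core gene H2ac4 was also without overlap, higher in the HTG group with at most 11 counts in a library, under the floor.

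The fitted log2 fold changes (HTG minus HFD) of the 27 core genes ranged from -0.76 to 1.58, 20 above and 7 below 0, with a median of 0.42 against 0.03 over all genes. This median turned with a single library. It was -0.11 without HTG library 1 and 0.90 without HFD library 1. Family medians were 0.14 for H2A, 0.65 for H2B, 0.34 for H3 and 0.37 for H4. The errors were wide, with a median standard error of 0.78 against 0.30 over all genes, and 25 of the 27 standard errors lay above the overall median. In 18 of the 27 genes both groups averaged under 1 CPM. Differences of the size fitted were not detectable in most core genes with these 6 libraries, which does not show that they were absent.

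**Figure D2:**
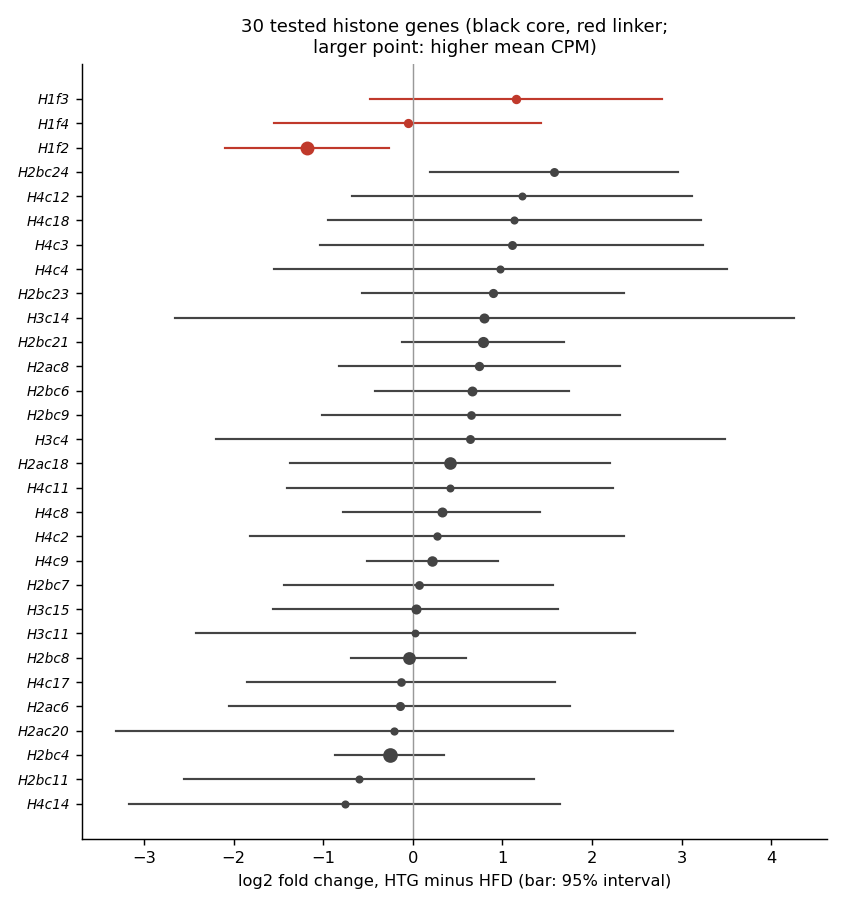
Log2 fold change (HTG minus HFD) of the 30 tested members with its 95% interval from edgeR, core genes in black and linker genes in red, with larger points for higher mean CPM. Of these 30, only the intervals of H1f2 (-2.09 to -0.27) and H2bc24 (0.19 to 2.96) leave out 0, and those of H2bc4 and H2bc8 are the narrowest among core genes, followed by H4c9.

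H1f2 encodes linker histone H1.2, one of the main somatic H1 proteins, and lies at 23922791 to 23924350 of chromosome 13 on the plus strand (ENSMUSG00000036181). It had 76.3, 116 and 54.9 CPM under HFD and 57.0, 20.9 and 30.9 CPM under HTG. HFD library 2 was highest and HTG library 2 lowest, and HTG library 1 lay above HFD library 3, so the groups overlapped. The means were 82.3 ± 30.8 CPM under HFD and 36.3 ± 18.7 CPM under HTG (each SD, n = 3), 2.27-fold lower in the latter. The log2 fold change was -1.18 (standard error 0.40, 95% interval -2.09 to -0.27), with an unadjusted p of 0.0171 and an adjusted p of 0.12 in edgeR's quasi-likelihood test. A heatmap of the study shows this gene among the changed genes of a transcription term, chosen on these libraries, so its direction is not independent evidence. Its unadjusted p was 0.0653 without HFD library 2, 0.0516 without HTG library 2 and 0.0578 without HTG library 3, and 0.00185 without HTG library 1. In bulk tissue, fewer cells that carry an mRNA and less of it per cell cannot be told apart.

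H1f2 made up nearly all of the linker signal, between 94.2% and 99.1% of linker counts in each library. Against H1f0, the replication-independent linker histone of resting cells, its FPKM ratio was 0.945, 1.26 and 0.788 under HFD and 0.756, 0.251 and 0.379 under HTG. All 3 HTG ratios lay below all 3 HFD ratios, as did the ratios of H1f2 to H2bc4 (0.327, 0.415 and 0.336 against 0.241, 0.144 and 0.169). In FPKM, H1f2 by itself lay apart between the groups only by a narrow margin (34.11 in HTG library 1 against 34.96 in HFD library 3). In CPM its groups overlapped, so the unit decided whether they lay apart. The share of all genes that lie apart in FPKM was not computed. The FPKM ratio of H2ac18 to H2bc4 overlapped (0.29, 0.045 and 0.069 under HFD against 0.34, 0.15 and 0.11 under HTG). How often such ratios lie apart over all genes was not computed. H1f0 itself had a log2 fold change of -0.02 (95% interval -0.42 to 0.39). An exact permutation test of any such single value cannot go below p = 0.1 with 3 libraries against 3, so none was used.

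The other linker genes had low counts, at most 72 in any library. H1f4 (histone H1.4) had 51, 38 and 15 counts under HFD and 52, 54 and 11 under HTG. The listed span of H1f4 shares 496 bases with that of H2bc6 on the same strand, so its counts are uncertain. H1f3 (histone H1.3) had 32, 26 and 14 counts against 42, 29 and 72. Library 3 was the lowest of both groups for H1f4, while HTG library 3 was the highest of all for H1f3. Their log2 fold changes were -0.06 (95% interval -1.55 to 1.44) for H1f4 and 1.15 (95% interval -0.48 to 2.78) for H1f3. H1f1 (histone H1.1) had 0, 7 and 24 counts under HFD and 0 in every HTG library. Only HFD library 3 was above the floor, and no fold is given. H1f5, with 12, 0 and 8 counts under HFD and 10, 6 and 6 under HTG, never exceeded the floor, and neither H1f1 nor H1f5 passed the filter.

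H2B was the best-measured core family, and H2bc4 alone held between 71.8% and 84.9% of all core counts. H2bc4 (ENSMUSG00000018102, chromosome 13, 23868182 to 23876891, plus strand) had 173, 207 and 121 CPM under HFD and 176, 107 and 136 CPM under HTG. HTG library 1 lay above HFD libraries 1 and 3 and the groups overlapped. The log2 fold change was -0.26 (standard error 0.26, 95% interval -0.86 to 0.35, adjusted p = 0.58 in edgeR's quasi-likelihood test), which leaves out a fall of 1 or more on the log2 scale. H2bc8 (chromosome 13, 23755570 to 23756187, plus strand) had 17.9, 21.9 and 10.5 CPM under HFD and 19.2, 12.8 and 16.6 under HTG. It followed the order of H2bc4 in all 3 libraries of each group, and its log2 fold change was -0.05 (95% interval -0.69 to 0.60). The FPKM ratio of H2bc4 to H2bc8 was 5.17, 5.06 and 6.18 under HFD and 4.88, 4.51 and 4.37 under HTG. All 3 HTG ratios lay below all 3 HFD ratios, by a narrow margin (4.88 against 5.06). How often ratios of other genes lie apart was not computed.

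The other H2B genes tested were mostly at higher fitted values in the HTG group, at far lower levels. H2bc21 (chromosome 3, 96128435 to 96131054, plus strand) had 2.48, 1.59 and 2.37 CPM under HFD and 1.93, 4.41 and 4.78 under HTG. HTG libraries 2 and 3 lay above all HFD libraries and HTG library 1 among them. Its log2 fold change was 0.79 (95% interval -0.12 to 1.69, unadjusted p = 0.0794 in edgeR's quasi-likelihood test across all genes), and 1.05 without HTG library 1 (unadjusted p = 0.0139). H2bc24 (chromosome 13, 22017913 to 22021700, plus strand), the only core gene under an unadjusted p of 0.05, had 15, 11 and 14 counts under HFD and 51, 30 and 37 under HTG. The groups did not overlap, but the counts that carried the difference were few. The log2 fold change of H2bc24 was 1.58 (standard error 0.60, 95% interval 0.19 to 2.96, unadjusted p = 0.0301, adjusted p = 0.156 in edgeR's quasi-likelihood test). Its unadjusted p went above 0.05 in 6 of 12 alternatives, among them the removal of any HFD library, of HTG library 1 or of HTG library 3. H2bc23, whose groups did not overlap either, had 36, 24 and 8 counts against 47, 53 and 34. Testis histone gene H2bc1 had at most 2 counts in any library.

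**Figure D3:**
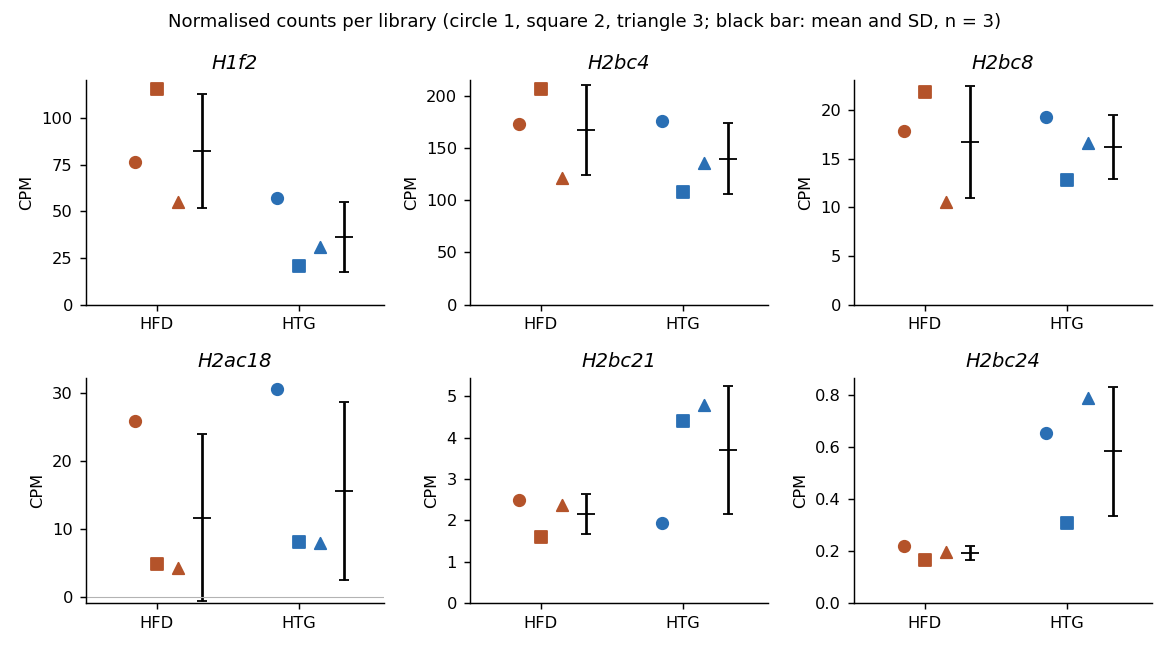
CPM of 6 members in each library (circles library 1, squares library 2, triangles library 3; y axes differ between panels), with the mean and SD of each group (n = 3) in black. H1f2 shows the lower HTG mean with overlapping groups, H2bc4 and H2bc8 the same order of libraries, H2ac18 the high library 1 of both groups, and H2bc24 groups that do not overlap at under 1 CPM.

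The H2A family rested on a single gene, H2ac18 (ENSMUSG00000064220, chromosome 3, 96152813 to 96153398, plus strand). It had 25.9, 4.75 and 4.25 CPM under HFD and 30.7, 8.03 and 7.86 under HTG. Library 1 of each group was several times above the other libraries of its group, and the groups overlapped. The log2 fold change was 0.42 (95% interval -1.37 to 2.20, adjusted p = 0.776 in edgeR's quasi-likelihood test). It was 1.79 without HFD library 1 (unadjusted p = 0.0265) and -0.60 without HTG library 1, so these libraries decided its size and its sign. H2ac8 had 18, 52 and 12 counts under HFD and 32, 91 and 32 under HTG, with library 2 highest in both groups. Its log2 fold change was 0.74 (95% interval -0.82 to 2.31), and 1.64 without HFD library 2 (unadjusted p = 0.0473). H2ac20 had 20, 22 and 0 counts against 8, 3 and 20, and a log2 fold change of -0.21 (95% interval -3.31 to 2.90). Of the 11 H2A genes not tested, none exceeded 20 counts in a library.

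Counts of H2ac18 are uncertain because other genes are listed over the same bases. On the same strand, 529 of its 586 bases lie within the lncRNA gene Gm20634 (chromosome 3, 96152870 to 96155825), and on the opposite strand it lies wholly within the lncRNA gene Gm20633. The H3 gene H3c14 also lies wholly within Gm20634 on its strand. Gm20634 had 12.2, 22.3 and 19.2 CPM under HFD and 13.6, 32.8 and 45.0 under HTG. Library 1 was thus the lowest of each group for Gm20634 where it was the highest for H2ac18 and H3c14. The sum of these 3 genes was 40.3, 27.1 and 23.4 CPM under HFD and 47.0, 40.9 and 54.1 under HTG, a narrower spread within each group than that of H2ac18 alone. In FPKM, which weights each row by its length, the sum was 49.6, 14.2 and 13.6 against 54.5, 25.1 and 25.5, with the groups overlapping. This sum was formed after its values were seen, and how reads were split between the rows was not tested.

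H3 had the lowest summed level of the 4 core families in every library, between 0.890 and 5.17 FPKM, and only H3c15 averaged 1 FPKM. H3c15 had 128, 41 and 51 counts under HFD and 126, 28 and 65 under HTG. H3c14 had 154, 2 and 2 counts against 213, 10 and 56. Both genes encode canonical H3 on chromosome 3 near H2ac18, and both were highest in library 1 of either group. Their log2 fold changes were 0.03 (95% interval -1.56 to 1.62) for H3c15 and 0.80 (95% interval -2.66 to 4.25) for H3c14. Without HFD library 1, the value for H3c14 was 5.46 (unadjusted p = 0.00803), set against HFD libraries with 2 counts each and so no measure of size, and without HTG library 1 it was -0.36. H3c11, a cluster gene on chromosome 13, had 20, 7 and 1 counts against 15, 6 and 8 and a log2 fold change of 0.03 (95% interval -2.42 to 2.48). The 8 H3 genes that were not tested included H3c1, whose counts were 0, 2 and 0 against 32, 0 and 4.

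H4 had more tested genes than any other family, 10 of 12, all at low levels. H4c9 had 93, 90 and 123 counts under HFD and 145, 136 and 89 under HTG, and H4c8 had 97, 46 and 44 against 119, 110 and 35. HTG library 3, the shallowest library, held the fewest counts of each. After scaling, the log2 fold change was 0.22 (95% interval -0.51 to 0.95) for H4c9 and 0.32 (95% interval -0.78 to 1.43) for H4c8. H4c17 had 18, 13 and 33 counts against 22, 10 and 22, and a log2 fold change of -0.13 (95% interval -1.85 to 1.59). H4c12 was the H4 gene without overlap, with 12, 4 and 3 counts against 15, 22 and 11. Its HFD counts did not exceed the floor, and its log2 fold change of 1.22 had a 95% interval from -0.68 to 3.11. The H4 genes encode nearly the same protein, and near-identical coding sequences within each family leave the split of reads between members uncertain.

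Summed over the members, tested or not, the core level was 234, 243 and 145 CPM under HFD and 245, 141 and 181 CPM under HTG. HFD library 3 and HTG library 2 were the lowest, the groups overlapped, and the log2 ratio of the group means was -0.14. Without H2bc4 the sums were 61.4, 36.8 and 23.8 against 68.9, 33.8 and 45.2 CPM, and the ratio was 0.28. Most of this remainder was H2bc8 and H2ac18, and without these 3 genes the other 52 core rows summed to 17.7, 10.2 and 9.09 against 19.0, 13.0 and 20.7 CPM. The linker level was 77.7, 117 and 55.8 CPM against 58.4, 21.8 and 32.8, a log2 ratio of -1.15. Without H1f2 it was 1.40, 1.06 and 0.849 against 1.33, 0.911 and 1.90 CPM, a log2 ratio of 0.33. In FPKM the same remainder was 0.690, 0.440 and 0.730 against 0.540, 0.400 and 0.410, a log2 ratio of -0.46, so the unit decided its direction. H2B made up between 81.9% and 95.4% of core counts, and all core genes together between 0.0149% and 0.0244% of the counts of all genes.

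**Figure D4:**
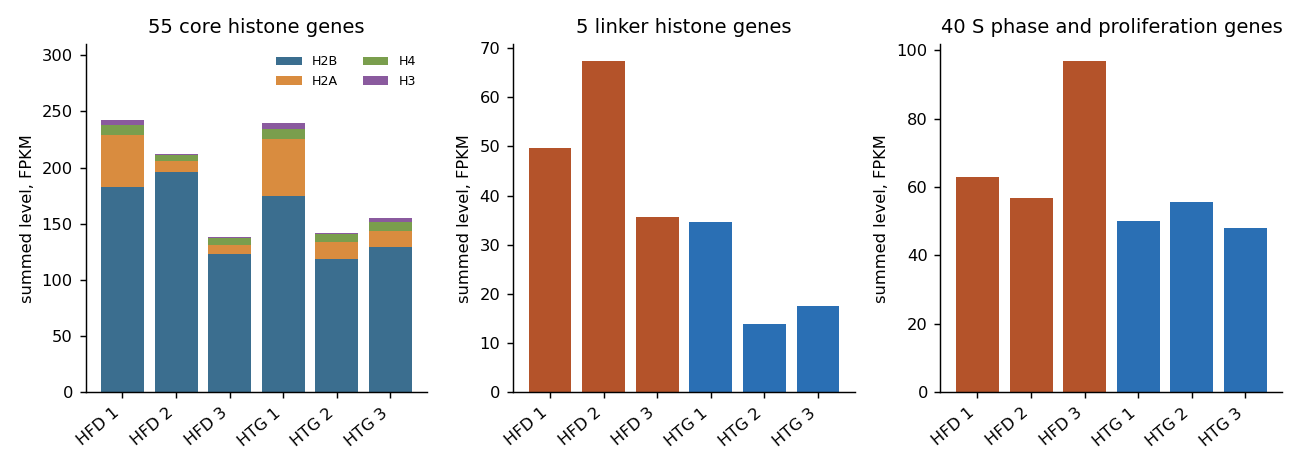
Summed FPKM per library of the 55 core histone genes, stacked by family, of the 5 linker histone genes (brown HFD, blue HTG) and of 40 S phase and proliferation genes. Core sums run from 138 to 243 FPKM with the groups interleaved, the linker sum is highest in HFD library 2, and the S phase sum is highest in HFD library 3, whose core sum is the lowest.

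Libraries differed in which members stood high. HFD library 1 was the highest of its group together with HTG library 1 in 9 of the 27 core genes tested (33.3%), against 7.66% of all genes tested, and together with HTG library 3 in another 9 (33.3%), against 8.72%. The latter combination included 5 of 9 H2B genes (55.6%). Of the 27 core genes, 19 averaged under 1 CPM, against 4867 of 18455 over all genes, so these shares compare genes at unlike levels. Members whose reads may be shared are not separate observations. With H2A and H3 counted together, library 1 of both groups was highest in 5 of 8 genes (62.5%). These were the 4 H3 genes tested (H3c4, H3c11, H3c14 and H3c15) and, of the 4 H2A genes tested, only H2ac18. Of these, H2ac18, H3c14 and H3c15 are neighbours on chromosome 3. H3c4, on chromosome 13, had 51, 4 and 6 counts under HFD and 75, 3 and 19 under HTG. H1f2, H2bc4 and H2bc8 had neither pattern. Their order within the groups was library 2, 1 and 3 for HFD and library 1, 3 and 2 for HTG. Among the core genes tested 2 of 27 (7.41%) had that order, against 5.64% of all genes tested. Of the histones listed as replication-independent, H2ax had that order. The labels give no batch.

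Genes around the histone mRNAs were described by lists, with the same test and the same background shares. The list taken as replication-independent histone genes had 12 genes tested, most of which are expressed outside S phase and give polyadenylated mRNA. The list also holds H2ax, H2aw and H4f16, for which this is not so or only in part. At an unadjusted p under 0.05, 1 was higher and 1 was lower, and the median log2 fold change was -0.05. H2az1, for the variant H2A.Z, had 3672, 5258 and 4262 counts under HFD and 3060, 2210 and 1091 under HTG. H2aj, for the variant H2A.J, had 1880, 1302 and 842 counts against 2755, 4559 and 1632. After scaling neither gene's groups overlapped, and the log2 fold changes were -1.17 for H2az1 (adjusted p = 0.0612) and 0.99 for H2aj (adjusted p = 0.0973, both from edgeR's quasi-likelihood test). H3f3b, for the replacement histone H3.3, was the most abundant of the list, with a log2 fold change of -0.31 (95% interval -0.80 to 0.17).

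The 31 genes of histone mRNA 3' end formation and decay held 4 higher and 6 lower genes at the same unadjusted threshold and a median of -0.15. Those with the smallest p were Srrt (0.75) and Snrpd3 (0.58) among the higher, and Mtrex (-0.92) and Snrpb (-1.18) among the lower. Srrt acts with the complex that binds the cap of nascent RNA, and Mtrex is a helicase of nuclear RNA decay. Snrpd3 and Snrpb encode Sm proteins that splicing uses too. In adjusted p these 4 ran from 0.0612 to 0.0794 in edgeR's quasi-likelihood test. Upf1, a helicase of mRNA decay, and Pnrc2, a decapping cofactor, the most abundant of the list, had 0.30 and 0.31 with intervals that included 0. Slbp itself, named for its role, had a log2 fold change of -0.28 (95% interval -0.75 to 0.18).

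Among 14 genes of histone gene transcription 0 were higher and 2 were lower at that threshold, with a median of 0.05. The lower ones were the S phase regulators E2f1 (-1.22, 95% interval -1.99 to -0.45), shown in the same heatmap of the study as H1f2, and Ccne1 (-0.76, 95% interval -1.51 to -0.01), the gene of cyclin E1. Cdk9, a kinase of transcription elongation, and Yy1, a zinc finger factor, the most abundant of the list, had 0.20 and -0.31, with intervals that included 0. Npat, the coactivator dedicated to these histone genes, was named for its role and had a log2 fold change of 0.03 (95% interval -0.64 to 0.69).

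Of 27 histone chaperones, which carry histones to and from DNA, 3 were higher and 8 were lower at an unadjusted p under 0.05, with a median of -0.22. Rbbp7, for a histone-binding subunit of several chromatin complexes, had a log2 fold change of -1.24 and an adjusted p of 0.0538 in edgeR's quasi-likelihood test. Ssrp1, for a subunit of the FACT complex, had -0.83. Higher values were found in Ubn2 (0.75), of the HIRA complex, and Hjurp (1.01), the chaperone of the centromeric histone variant CENP-A. HTG library 2 held 39698 counts of Hjurp against at most 13132 in any other library. The abundant nucleolar chaperone gene Npm1 had -0.61 (95% interval -1.07 to -0.15).

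The 40 S phase and proliferation genes mostly had lower fitted values in the HTG group, 34 of 40, against 8933 of 18455 over all genes. Their median log2 fold change was -0.66. At an unadjusted p under 0.05, 0 were higher and 9 were lower. They included Cdt1, which licenses replication origins (-1.19, adjusted p = 0.0585 in edgeR's quasi-likelihood test), Ccnb1, for cyclin B1 (-1.67), and Pcna, for the sliding clamp of replication (-0.60). Summed over the list, the level was 282, 281 and 411 CPM under HFD and 238, 261 and 242 CPM under HTG. HFD library 3 stood above the rest, and without it the median was -0.15. The same library had the lowest summed core histone level of its group, 145 CPM. The summed polyadenylated core histone level, mostly that of H2bc4, was thus not highest in the library in which S phase genes were highest. Of the 27 core genes tested, 2 were highest in HFD library 3 among HFD libraries. These were H4c9 (1.37, 1.35 and 1.71 CPM) and H4c17 (0.264, 0.195 and 0.459 CPM). A link between core histone levels and S phase genes was not tested.

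**Figure D5:**
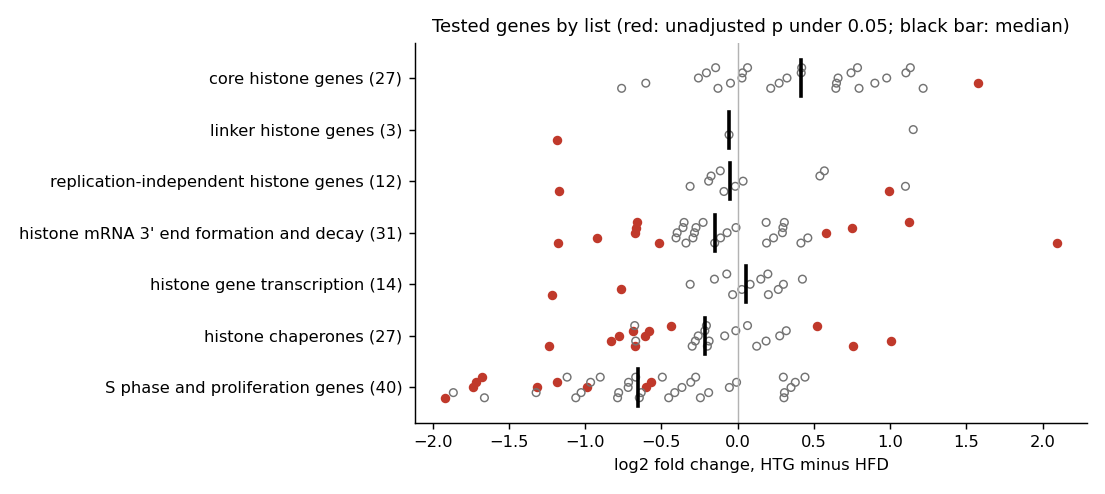
Log2 fold change (HTG minus HFD) of the tested genes of each list, with the number tested in parentheses, unadjusted p under 0.05 in red, other genes as open circles and the median as a black bar. The median of the core histone genes (0.42) lies above 0 and that of the S phase and proliferation genes (-0.66) below it.

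RNAs that carry no poly(A) tail served as a partial reading of what else the oligo(dT) step let through. The libraries were also selected by fragment size, so a short RNA could be missing for that reason. Of 22 listed, 4 were tested and none had an unadjusted p under 0.05. Their summed level was 1.12, 2.73 and 0.710 CPM under HFD and 1.68, 2.72 and 2.18 CPM under HTG. Library 2 was the highest of each group in this sum, as it was in H2ac8. In H2ac18 and the H3 genes tested, library 1 was highest. All 4 RNAs tested averaged under 1 CPM, so the list gives little ground for a comparison with the histone genes. Rn7s1 and Rn7s2, for the RNA of the signal recognition particle, had log2 fold changes of 0.76 and 0.79 with intervals that included 0. The counts of these genes were nearly the same (under HFD 19, 47 and 10 for Rn7s1, and 19, 47 and 11 for Rn7s2). They are thus close to a single reading. The part of RNAs without a poly(A) tail in the histone values was not tested.

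The tissue matched its label, since the hepatocyte gene Alb had 24540 FPKM on average. At an unadjusted p under 0.05 the 8 hepatocyte markers included 1 higher and 2 lower. Of all genes, 12.3% were higher and 12.4% lower at that threshold. Among markers of other liver cells, 2 of 6 for Kupffer cells and macrophages were lower, with summed levels from 599 to 1024 CPM in the HFD and from 376 to 732 CPM in the HTG libraries, led by Cd5l (-0.86, unadjusted p = 0.0281 in edgeR's quasi-likelihood test across all genes). None of 5 T and B lymphocyte markers (Cd8a led), 6 neutrophil markers (S100a9) or 5 sinusoidal endothelial markers (Clec4g) passed in either direction. Of 7 red cell and erythroid markers (Hbb-bs led) 1 was lower, and 5 stellate cell markers (Dcn) and 4 biliary markers (Sox9) each had 1 higher and 1 lower. No male germ cell marker was tested. H1f6, a testis linker histone, was at 0 in every library but HTG libraries 2 and 3, with 18 and 12 counts. The part of cell composition in the histone values was not tested.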

How the data were processed

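Poly(A) RNA of 6 livers (3 HFD, 3 HTG) was sequenced as strand-marked paired-end libraries. The authors deposited for each gene and library an estimated count, in whole numbers with no scaling between libraries, and an FPKM value, which divides by transcript length and library size. The submitters' processing notes list HISAT2, StringTie and SAMtools and the rat build mRatBN7.2, though the rows are mouse genes. Whether counting used the strand is not given in the sources used here.

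Counts as deposited were tested with edgeR 4.0.16 (TMM, filterByExpr, quasi-likelihood test, group as the only term, Benjamini-Hochberg over 18455 genes) in R 4.3.3. Library totals ran from 50648778 to 78549295 counts in 5 libraries and were 90563477 in HTG library 2, or 12662194 to 22640869 fragments if 4 counts are taken as 1. The code was tested on simulated counts. Alternatives were DESeq2 1.42.0, other filters and scalings, limma 3.58.1 on log2(FPKM + 0.1) where the mean was at least 1 FPKM, the replicate number as a block, counts divided by 4, and each library left out.

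Named in the text are all linker genes, the 3 core genes with the highest mean FPKM per family, members with an unadjusted p under 0.05, and in each list the 2 most abundant genes and the 2 with the smallest such p per direction (markers: the most abundant). Other names were chosen after their values were seen. A gene that this rule names is not reported here. Members and lists were chosen with earlier results of these data known. A pseudogene row, H2ac14, was left out. The supplied RefSeq tables are of rat, so no sequences are shown.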

Additional observations from a re-analysis of the deposited data

How the results depend on the processing

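The 1 core gene higher at an unadjusted p under 0.05 became 0 in limma on FPKM and with counts divided by 4 (7 and 11 core genes left to test), and 0 to 2 with 1 library left out: 0 without HFD library 3 or HTG library 3, H2ac18 and H3c14 without HFD library 1, H2ac8 without HFD library 2, H2bc21 without HTG library 1, and H2bc24 and H2ac7 without HTG library 2. No alternative gave a lower core gene. The core median ran from -0.11 (without HTG library 1) to 0.90 (without HFD library 1). The count of lower linker genes was 2 with no filter, where H1f1 joined H1f2, and 0 to 1 with 1 library left out (0 without library 2 of either group or without HTG library 3). The linker median was -1.28 in limma on FPKM, where only H1f2 was tested. Without the most abundant gene the summed log2 ratio in CPM was 0.28 for core and 0.33 for linker genes, and in FPKM 0.17 and -0.46. Over all genes, limma on FPKM called 1413 higher, of 10930 tested, against 2275. The number with an adjusted p under 0.05 was 2 in the main test, 2467 in DESeq2, 878 in limma on FPKM, 822 with counts divided by 4, 684 with at least 10 counts in every library, 162 with no filter, 653 without HTG library 1, 7 without HFD library 2, and 0 with the block, without library 3 of either group and without HTG library 2. The causes were not tested beyond the fewer genes named.

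The sign of several log2 fold changes turned, those of H3c14 (0.80) and H2ac18 (0.42) and others that lay nearer 0 in the main test. H3c15 was -0.11 in limma on FPKM and -0.11 with the replicate block, and H1f0 was 0.0226 with upper-quartile scaling. With 1 library left out, the ranges were -0.43 to 0.33 for H1f4, -0.60 to 1.79 for H2ac18, -1.61 to 0.33 for H2ac20, -0.30 to 0.19 for H2bc8, -0.43 to 0.72 for H3c15, -0.36 to 5.46 for H3c14, -0.51 to 1.22 for H3c11, -0.67 to 0.28 for H4c17, -0.12 to 0.0834 for H1f0 and -0.00331 to 0.49 for Cdk9. None of these genes had an unadjusted p under 0.05 in the main test. Adjusted p-values of H1f2 ran from 0.019 to 0.313 over 14 alternatives (edgeR, DESeq2 and limma), those of H2bc24 from 0.0771 to 0.378 where one was given. Of the lists, S phase genes had between 5 and 18 lower genes. Over all genes the number of lower ones moved too, from 1545 of 19095 tested (without HTG library 2) to 2866 of 19304 (without HTG library 1). Ccne1 and Hjurp passed an unadjusted p under 0.05 in 6 of 13 and 10 of 14 alternatives.

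Whether the shared replicate numbers pair the libraries is not stated. Deviations of same-numbered libraries from their group means correlated with r = -0.08, -0.07 and 0.12 across genes. HTG library 1 correlated best with HFD library 2 (r = 0.19). Such values across genes cannot exclude a pairing that touched only some genes. With the number as a replicate block, 1 core gene was higher, now H2ac18 (0.63, unadjusted p = 0.0252, adjusted p = 0.187 in edgeR's quasi-likelihood test), H2bc24 had an unadjusted p of 0.0715, and H1f2 stayed at -1.22 (unadjusted p = 0.0228, adjusted p = 0.182 in the same edgeR test). Of the 27 core genes tested, 19 averaged under 1 CPM, which limits their precision, while in H2ac18, with 305 to 2390 counts, the standard error was 0.78 as well.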
